A study of Homo sapiens with 4 samples.

Results

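The genes described here are those of the enzymes that write and erase histone and DNA methylation, together with the histone deacetylase and sirtuin families, in U87 cells, an established line from a human glioblastoma. They were chosen by symbol in the platform annotation: KDM, KMT, HDAC, SIRT and DNMT followed by a digit, every symbol starting with SETD, TET1 to TET3, and EZH1 and EZH2. The rule found 63 of 20045 named genes, read by 101 of 47318 probes. They comprised 17 KDM genes, 11 HDAC, 10 SETD, 8 KMT, 7 SIRT, 4 DNMT, 2 TET and 2 EZH genes, and 2 noncoding RNA genes, KMT2E-AS1 and KDM7A-DT, that the rule took in by name. The HDAC and SIRT products remove acetyl and related acyl groups rather than methyl groups, and some SETD products act on proteins other than histones, so the group is wider than methylation. KDM5D is Y-linked; it was counted and its level is not given.

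Each culture received 25 nM of either a synthetic RNA that mimics piR-598, one of the PIWI-interacting RNAs, or an NC oligo, which is sold as a negative control for microRNA inhibitors, by lipid transfection. RNA was collected after 24 h and read on 4 Illumina bead arrays, 2 per group and named here NC oligo 1 and 2 and mimic 1 and 2. The submitters describe biological duplicates without naming separate passages, so p-values measure the spread between these arrays, which may be technical. The group means rest on 1 cell line and 2 arrays each, which limits the precision of every value. Array means of the deposited signal lay between 273.0 and 305.8, and 19627 to 20324 probes per array were detected, that is, had a detection p under 0.05. Of the lineage markers, VIM, NES, CD44, S100A6 and TNC were detected on all 4 arrays. PTPRC and CDH5, which mark blood and endothelial cells, were detected on none. The other markers foreign to the line were not all at background: all 3 CD68 probes, a gene also known in glioma, and 1 of 2 ALB probes were detected on 4 arrays, and EPCAM probes on up to 3; their part in the results was not tested.

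Chromatin enzymes of these families set and remove small chemical marks on histone tails and on cytosine. DNMT enzymes add methyl groups to cytosine and TET enzymes oxidise them. Most KMT, SETD and EZH enzymes methylate lysines, mainly of histones, and most KDM enzymes reverse this. Deacetylases of the HDAC and SIRT families often act in corepressor complexes beside them. In the germ line, PIWI proteins guided by PIWI-interacting RNAs are known to direct repressive histone methylation to transposons in flies and DNA methylation in mice, where the cofactor DNMT3L is required. The comparison asks whether transcripts of these enzymes differed 24 h after transfection of the mimic.

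Most of the enzyme genes were expressed above background in U87. A probe detected on 2 or more arrays was held by 50 of 63 genes (79.4%), against 11704 of 20045 named genes (58.4%). For 41 of the genes at least 1 probe was detected on all 4 arrays. Among them were DNMT1, SETDB1, EZH2, KDM1A, KMT2A, HDAC1, HDAC2, HDAC3 and SIRT1. By probes, 50 of 101 were detected on all 4 arrays, 8 on 3, 5 on 2, 8 on 1 and 30 on 0. The 63 probes detected on at least 2 arrays were tested, and statements on differences cover those alone.

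**Figure D1:**
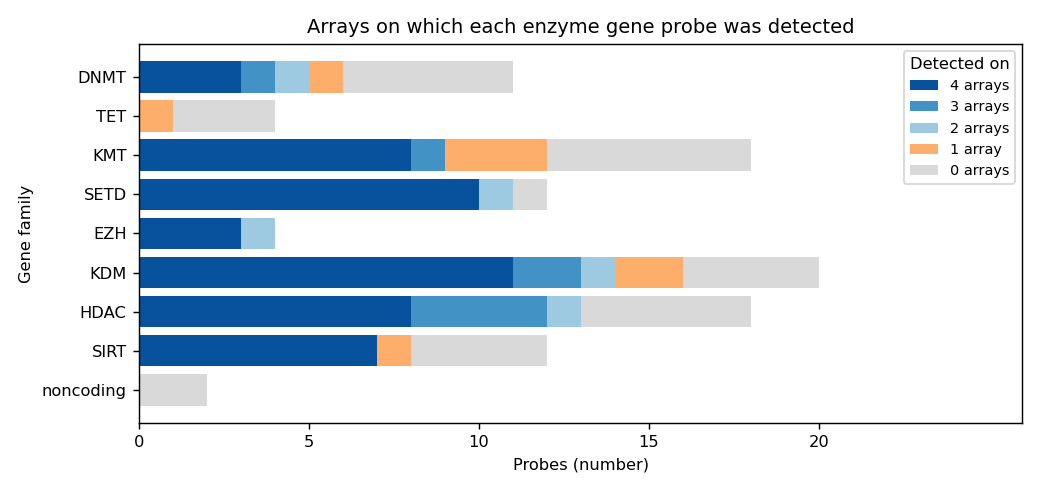
Number of probes (x axis) of each enzyme gene family (y axis), coloured by how many of the 4 arrays detected them. All 4 EZH probes and 11 of 12 SETD probes were detected on at least 2 arrays, against 0 of 4 TET probes.

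The DNA methylation erasers TET1 and TET2 and the germ line cofactor DNMT3L lay at or near the array's background. TET3 had no probe named in the annotation, so nothing is said of it. Neither of the TET genes in the annotation was detected on 2 arrays: the detection p of TET2 ran from 0.287 to 0.658, and that of the 3 TET1 probes from 0.0325 to 0.814. One TET1 probe was detected on NC oligo 2 alone. Both probes of DNMT3L were detected on 0 arrays, with a detection p of 0.403 to 0.810. Other genes without a tested probe were KMT2D, SETD7, KDM1B, KDM4A, KDM4D, SIRT3, SIRT4 and the noncoding RNAs KMT2E-AS1 and KDM7A-DT. A probe at background gives only a bound on its transcript; whether these genes were silent was not tested.

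Probes of the same gene often disagreed on presence. Of 18 genes with several probes, 10 had both a tested probe and one detected on fewer than 2 arrays. One of 3 DNMT3A probes was tested, and so was 1 of 4 HDAC9 probes, 1 of 3 HDAC7 probes and 1 of 6 KMT2C probes. For DNMT3B, 3 of 5 were tested. Values below are therefore of single probes, and a signal of 1 probe is not set against that of another.

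A shared feature outside the naming rule was the sequence at the gene start. Of 59 genes with a promoter in the RefSeq table of GRCh38.p14 (first listed start, 250 bases before to 50 after it), 54 (91.5%) had a ratio of observed to expected CG dinucleotides of at least 0.6. This was so for 66.2% of 15033 promoters of genes on the array. The share was 91.5% of the 47 tested and 91.7% of the 12 untested enzyme genes. Over all genes it was 80.7% of the tested and 41.9% of the untested. No enzyme promoter held the letters TATAAA on the gene's strand, against 6.75% of all. At the first listed start, the lowest ratios belonged to tested genes, DNMT3B at 0.118, HDAC4 at 0.136 and HDAC9 at 0.311. That of TET1, which was not tested, was 0.463. Other starts of these genes were not examined, so a low ratio describes that start alone.

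The promoters of 4 genes are printed as examples and were chosen after their values were seen: DNMT1, the maintenance DNA methyltransferase, detected on all 4 arrays (chr19:10194904-10195203, minus strand, 30 CG); DNMT3B, the lowest of all 59 (chr20:32779602-32779901, plus strand, 3 CG); TET1, not tested (chr10:68560087-68560386, plus strand, 10 CG); and SETD3, which has the highest log2 fold change below (chr14:99480810-99481109, minus strand, 45 CG). Each is taken at the gene's first listed start, which need not be the start used in U87. Each runs 5′ to 3′ on the gene's strand in GRCh38.p14, with CG dinucleotides in capitals. Most CG in DNMT1 and SETD3 lie close together, and TET1 and DNMT3B have long stretches without one.
DNMT1: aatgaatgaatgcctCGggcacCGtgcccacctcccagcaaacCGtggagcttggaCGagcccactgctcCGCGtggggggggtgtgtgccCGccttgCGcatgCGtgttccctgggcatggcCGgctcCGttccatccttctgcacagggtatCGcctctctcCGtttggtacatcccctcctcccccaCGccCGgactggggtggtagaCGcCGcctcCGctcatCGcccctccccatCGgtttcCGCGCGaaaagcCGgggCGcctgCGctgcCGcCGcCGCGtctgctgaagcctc
DNMT3B: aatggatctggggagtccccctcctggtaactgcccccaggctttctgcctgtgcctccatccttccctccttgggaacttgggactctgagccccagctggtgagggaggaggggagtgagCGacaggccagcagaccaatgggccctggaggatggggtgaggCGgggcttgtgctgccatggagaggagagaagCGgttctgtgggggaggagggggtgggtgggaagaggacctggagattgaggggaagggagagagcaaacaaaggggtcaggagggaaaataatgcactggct
TET1: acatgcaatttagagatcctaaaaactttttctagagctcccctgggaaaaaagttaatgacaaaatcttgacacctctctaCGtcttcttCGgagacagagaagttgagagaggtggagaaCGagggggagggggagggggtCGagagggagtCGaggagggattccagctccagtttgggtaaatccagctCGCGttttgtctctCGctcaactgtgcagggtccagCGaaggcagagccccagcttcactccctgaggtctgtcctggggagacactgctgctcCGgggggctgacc
SETD3: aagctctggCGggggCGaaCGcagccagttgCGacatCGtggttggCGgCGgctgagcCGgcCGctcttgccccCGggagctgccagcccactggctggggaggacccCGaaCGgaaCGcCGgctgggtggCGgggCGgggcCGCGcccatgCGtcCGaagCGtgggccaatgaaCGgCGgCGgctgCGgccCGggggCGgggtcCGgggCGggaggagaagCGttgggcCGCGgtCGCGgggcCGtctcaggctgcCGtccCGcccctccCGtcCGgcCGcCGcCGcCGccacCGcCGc

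No enzyme gene passed the test between the groups. Among probes detected in both groups, the lowest and the highest log2 fold change (mimic minus NC oligo) were -0.42 for KDM3B and 0.57 for 1 of 3 SETD3 probes. In limma, 0 of the 63 tested probes had an adjusted p (Benjamini-Hochberg) under 0.05, where 0% of all 20188 tested probes had one. The smallest adjusted p was 0.895. The probes lay on both sides of 0, with 29 positive and 34 negative and a median log2 fold change of -0.0041, against 6.7e-04 over all tested probes. The unadjusted p was under 0.05 for 7 probes (11.1%), against a background of 5.46% of all tested probes. Of the 7, 4 were higher with the mimic, against 2.62% of all, and 3 were lower, against 2.84%. That count of 7 fell to 2 when NC oligo 1 was left out and to 1 when NC oligo 2 was, and was 8 and 6 when mimic 1 and mimic 2 were. The groups did not overlap for 22 of 63 probes (34.9%), against 34.7% of all tested probes.

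For 61 of the 63 probes at least 1 array of each group was above background. The 95% interval of their fitted log2 fold changes stayed inside a 2-fold difference for all 61, up or down, and inside 1.5-fold for 48. HDAC11 and KDM7A were undetected in 1 whole group, so their fitted intervals set no upper limit on a difference. These intervals also depend on the background correction, which sets the size of fold changes at low signal. Over all 63 the median interval reached 0.34 to either side, or 1.27-fold. Differences between replicates were of the same order as those between the groups. The former are between 2 single arrays and the latter between means of 2 arrays, so they are not on equal terms. The median difference between arrays was 0.14 within the NC oligo group and 0.16 within the mimic group on the log2 scale, and the median size of the group difference was 0.11. For 13 of the 63 probes (20.6%) the group difference was larger than both differences between replicates, against 23.3% of all tested probes.

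**Figure D2:**
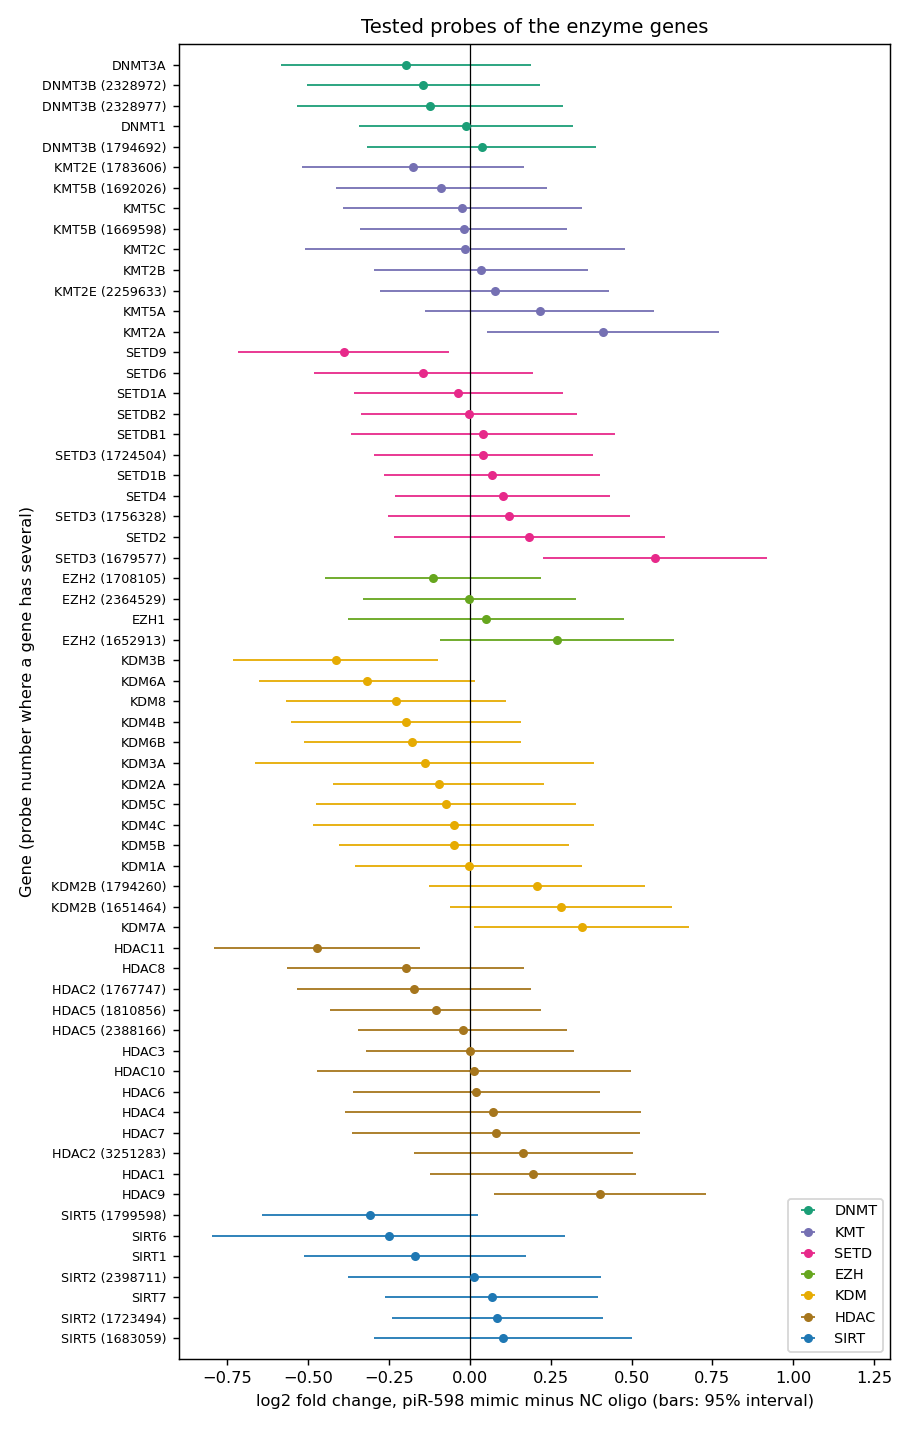
Log2 fold change of each tested probe, mimic minus NC oligo (x axis), with its 95% interval from limma (bars), by gene and family (y axis, colours). The values of probes detected in both groups run from -0.42 for KDM3B to 0.57 for SETD3; HDAC11 (-0.47) and KDM7A (0.35) are fitted against a group at background. The intervals of all but 7 probes include 0.

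Writers of DNA methylation did not separate between the groups. DNMT1 copies methylation onto new DNA strands. Its normalized log2 signal was 11.35 and 11.29 on NC oligo 1 and 2 and 11.39 and 11.23 on mimic 1 and 2, so both mimic arrays enclosed the NC oligo arrays. Its log2 fold change was -0.01 ± 0.15 (SE), with a 95% interval from -0.34 to 0.32 (limma adjusted p = 0.997). Every SE given here is limma's moderated SE, which draws largely on the spread of all tested probes, not on that probe's replicates alone. DNMT3A and DNMT3B methylate previously unmethylated sites. The DNMT3A probe had 4.59 and 4.96 with the NC oligo and 4.49 and 4.66 with the mimic, near the detection limit and overlapping. Its log2 fold change was -0.20 ± 0.17 (SE), and ran from -0.38 to -0.015 as each array was left out. The 3 DNMT3B probes had log2 fold changes of 0.04, -0.14 and -0.12. Their values were 5.49 and 5.74 against 5.73 and 5.58, 6.07 and 5.88 against 5.95 and 5.71, and 4.42 and 4.86 against 4.41 and 4.61, NC oligo first. All of these ranges overlapped between the groups, and 0 of the 5 DNMT probes had separate groups, against 34.7% of all tested probes, so a count of 0 in so few probes is not read as a result.

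KMT genes are named for lysine methyltransferases, and none passed the test. Among 9 tested KMT probes, 4 were positive and 5 negative, with a median log2 fold change of -0.02. KMT2A, the MLL protein that methylates histone H3 at active promoters, had 5.55 and 5.78 with the NC oligo and 5.97 and 6.18 with the mimic. Both mimic arrays were above both NC oligo arrays. Its log2 fold change was 0.41 ± 0.16 (SE), from 0.30 to 0.53 as each array was left out, with an unadjusted p of 0.0294 and an adjusted p of 0.895 (limma). It was 0.26 with an offset of 50 and 0.18 without background correction. KMT2B, its closest relative, had a log2 fold change of 0.03. KMT5A, which adds single methyl groups to histone H4, had 0.22, and the 2 probes of KMT5B had -0.02 and -0.09.

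SETD3 methylates a histidine of actin. Its probe ILMN_1679577 had 5.35 and 5.10 on the NC oligo arrays and 5.82 and 5.77 on the mimic arrays. The mimic arrays were higher, with a log2 fold change of 0.57 ± 0.15 (SE) or 1.49-fold (limma unadjusted p = 0.00483, adjusted p = 0.895). That value depended on the background handling: it was 0.33 with an offset of 50, 0.22 on the authors' scaled signals and 0.21 without background correction. The other probes of SETD3 gave smaller values. Probe ILMN_1724504 had 10.57 and 10.52 with the NC oligo and 10.48 and 10.69 with the mimic, a log2 fold change of 0.04, and ILMN_1756328, detected on 2 arrays, had 0.12. SETD9 lay the other way: it had 7.36 and 7.43 with the NC oligo and 7.06 and 6.95 with the mimic. Its groups did not overlap and its log2 fold change was -0.39 ± 0.14 (SE), with an adjusted p of 0.895 in limma. Over the 11 SETD probes 7 were positive and 4 negative, with a median log2 fold change of 0.04.

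Enzymes of heterochromatin, transcription and Polycomb showed no separation beyond replicate spread. SETDB1, which methylates histone H3 at silenced transposons, had 7.14 and 7.33 with the NC oligo and 7.49 and 7.06 with the mimic. The mimic arrays enclosed the NC oligo arrays, and the log2 fold change was 0.04 ± 0.18 (SE). SETD2, which methylates histone H3 along transcribed genes, had 0.18 ± 0.18 (SE). EZH2 is the catalytic subunit of Polycomb repressive complex 2. Its probes ILMN_1708105 and ILMN_2364529 had log2 fold changes of -0.11 and -0.0019. The first had 8.22 and 8.09 with the NC oligo and 7.97 and 8.12 with the mimic, and the second lay between 7.93 and 8.09 on the 4 arrays. The third EZH2 probe, ILMN_1652913, had 5.35 and 5.66 against 5.81 and 5.72. Its groups did not overlap, by a small margin, and its log2 fold change was 0.27 ± 0.16 (SE; limma adjusted p = 0.913). EZH1, the alternative subunit, was detected on 1 array of each group, with 4.35 and 4.70 against 4.38 and 4.77.

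More KDM probes were negative than positive, several of them close to 0, and none passed the test. Of 14 tested KDM probes, 11 were negative and 3 positive, where 10064 of all 20188 tested probes were negative. Their median log2 fold change was -0.09. Several negative values were smaller in size than their SE: KDM3A (-0.14), KDM2A (-0.10), KDM5C (-0.07), KDM4C (-0.05), KDM5B (-0.05) and KDM1A (-0.0041). The groups did not overlap for 8 of the 14 (57.1%), against 34.7% of all tested probes. Of the 8, 5 were lower and 3 higher with the mimic, where 17.6% and 17.1% of all were. Such counts in 14 probes are not read as a result about the family. KDM3B, which demethylates histone H3 at repressed sites, had 7.78 and 7.81 with the NC oligo and 7.36 and 7.39 with the mimic. The replicates lay close together and apart from the other group, and the log2 fold change was -0.42 ± 0.14 (SE) or 1.33-fold (limma unadjusted p = 0.0163, adjusted p = 0.895). It stayed between -0.43 and -0.40 as each array was left out. KDM6A, which removes the Polycomb mark, had 6.48 and 6.68 against 6.28 and 6.24, a log2 fold change of -0.32 ± 0.15 (SE). Its relative KDM6B had -0.18. KDM4B had 6.14 and 6.42 against 6.03 and 6.13, and KDM8, a JmjC-domain protein, had 4.87 and 4.71 against 4.64 and 4.47. Their log2 fold changes were -0.20 and -0.23. The mimic arrays were lower in both, by less than the gap between the NC oligo replicates in KDM4B.

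The 3 positive KDM probes belonged to 2 genes. KDM2B brings a Polycomb complex to CG-rich promoters. Its probe ILMN_1794260 had 9.79 and 9.61 with the NC oligo and 9.95 and 9.87 with the mimic, and ILMN_1651464 had 4.61 and 4.44 against 4.72 and 4.89. Both probes were higher on both mimic arrays, with log2 fold changes of 0.21 ± 0.15 and 0.28 ± 0.15 (SE). KDM7A, a demethylase of repressive marks, was detected on both mimic arrays and on neither NC oligo array, with 4.38 and 4.27 against 4.60 and 4.75. Allowing for the detection limit, but not for the spread between arrays, the mimic arrays were at least 1.06-fold higher under the main background correction (limma adjusted p = 0.895). KDM1A, the flavin-dependent demethylase of the CoREST complex, had 9.06 and 8.98 against 9.15 and 8.88. Its mimic arrays enclosed the NC oligo arrays, with a log2 fold change of -0.0041 ± 0.15 (SE).

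**Figure D3:**
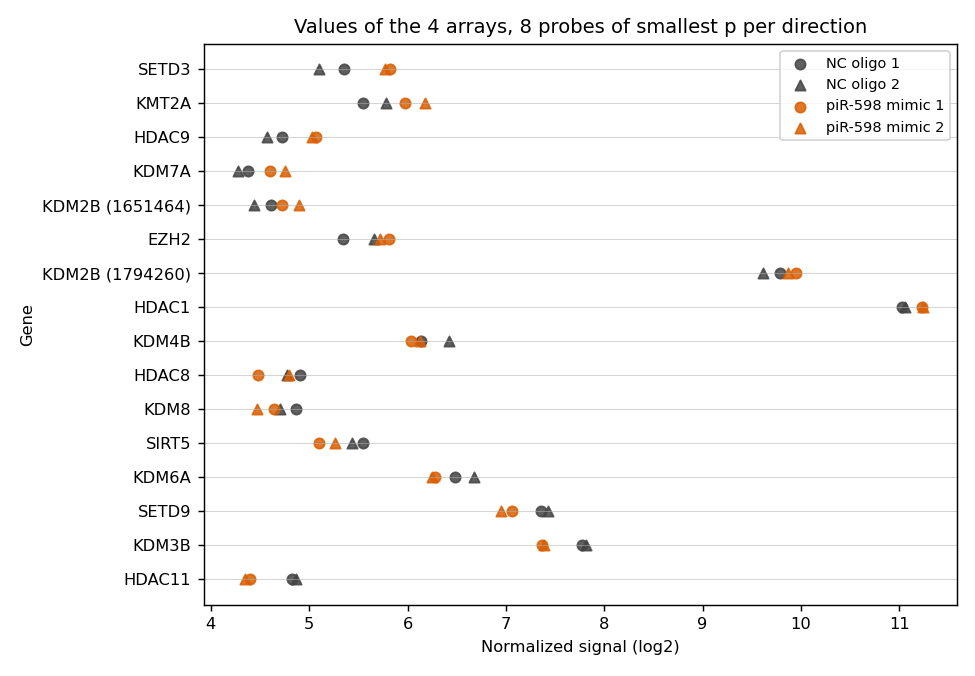
Normalized log2 signal (x axis) of the 4 arrays for the 8 enzyme gene probes of smallest unadjusted p in each direction (y axis). NC oligo arrays are grey, mimic arrays orange, and circles and triangles are replicates 1 and 2. The groups are apart for 15 of the 16, with wide gaps in SETD3 and KDM3B, and the HDAC8 arrays overlap. The probes were picked for a small p on the same arrays, so this count follows largely from that choice. Over all tested probes the groups did not overlap for 34.7%. The mimic arrays of HDAC11 and the NC oligo arrays of KDM7A are at background.

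Deacetylases divided by class gave values on both sides. Class I holds the catalytic subunits of corepressor complexes. HDAC1 had 11.03 and 11.06 with the NC oligo and 11.23 and 11.24 with the mimic. Its replicates agreed within 0.03 and its groups were apart, at a log2 fold change of 0.19 ± 0.14 (SE; limma adjusted p = 0.935). HDAC1 itself varied less between replicates than this moderated SE, which draws on all tested probes. The 2 probes of its partner HDAC2 differed in sign. ILMN_1767747 had 10.00 and 9.77 against 9.60 and 9.82, a log2 fold change of -0.17 that ran from -0.29 to -0.06 as each array was left out, and ILMN_3251283 had 4.68 and 4.82 against 5.004 and 4.83, or 0.17, with a range from 0.08 to 0.25. HDAC3, the enzyme of the NCoR complex, had 9.53 and 9.45 against 9.46 and 9.52, with a log2 fold change of 9.5e-04 and a 95% interval from -0.32 to 0.32. HDAC8, which deacetylates cohesin, had 4.90 and 4.77 against 4.48 and 4.80. Its low value on mimic 1 set its log2 fold change of -0.20, which was -0.04 without piR-598 mimic replicate 1.

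Among the other classes, HDAC9, HDAC11 and 1 of 2 HDAC5 probes had groups that did not overlap. Over all 13 tested HDAC probes this was so for 5 (38.5%), close to the 34.7% of all tested probes. HDAC9, a class IIa repressor of MEF2 targets, had 4.72 and 4.57 against 5.07 and 5.03 on 1 probe detected on 3 arrays. Its mimic arrays were higher, with a log2 fold change of 0.40 ± 0.14 (SE; limma adjusted p = 0.895), and its remaining 3 probes were detected on 0 arrays. The value was 0.18 with an offset of 50 and 0.11 without background correction. HDAC11, the sole class IV enzyme, was detected on both NC oligo arrays, at 4.82 and 4.87, and on neither mimic array, at 4.40 and 4.35. It was at least 1.20-fold lower with the mimic by the same bound (limma unadjusted p = 0.00866, adjusted p = 0.895). That bound holds only for the main background correction, where the fitted log2 fold change of HDAC11 was -0.47. It was -0.20 with an offset of 50, -0.15 without background correction and -0.11 on the authors' scaled signals. HDAC4, HDAC5, HDAC6, HDAC7 and HDAC10 had log2 fold changes between -0.11 and 0.08.

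Sirtuins use NAD to remove acyl groups. SIRT1, a nuclear member, had 6.54 and 6.50 with the NC oligo and 6.23 and 6.47 with the mimic. Its log2 fold change was -0.17 ± 0.15 (SE), and mimic 2 lay close below NC oligo 2. It ran from -0.29 to -0.05 as each array was left out. SIRT5, a mitochondrial desuccinylase, had 2 tested probes of opposite sign. ILMN_1799598 had 5.54 and 5.43 against 5.10 and 5.26, or -0.31 ± 0.15 (SE), and ILMN_1683059 had 6.16 and 5.72 against 5.996 and 6.09, or 0.10 ± 0.18 (SE). The lowest value of SIRT6, 5.10, was on mimic 2, against 5.90 on mimic 1 and 5.85 and 5.66 on the NC oligo arrays. Over the 7 SIRT probes 4 were positive and 3 negative.

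Probes of the same gene often gave different fold changes. Of 10 genes with several tested probes, 5 had probes of opposite sign: DNMT3B, EZH2, HDAC2, KMT2E and SIRT5. The spread between probes of 1 gene had a median of 0.22 on the log2 scale and exceeded 0.3 in 4 genes, SETD3, SIRT5, EZH2 and HDAC2. The same was not computed over all genes with several tested probes, so these counts are not read as particular to the enzyme genes. In KDM2B, HDAC5, KMT5B and SIRT2 the probes had the same sign and differed by 0.07 to 0.08. HDAC11, KDM3B, KMT2A, SETD9, KDM7A and HDAC9 had a single tested probe, so their values have no such check.

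**Figure D4:**
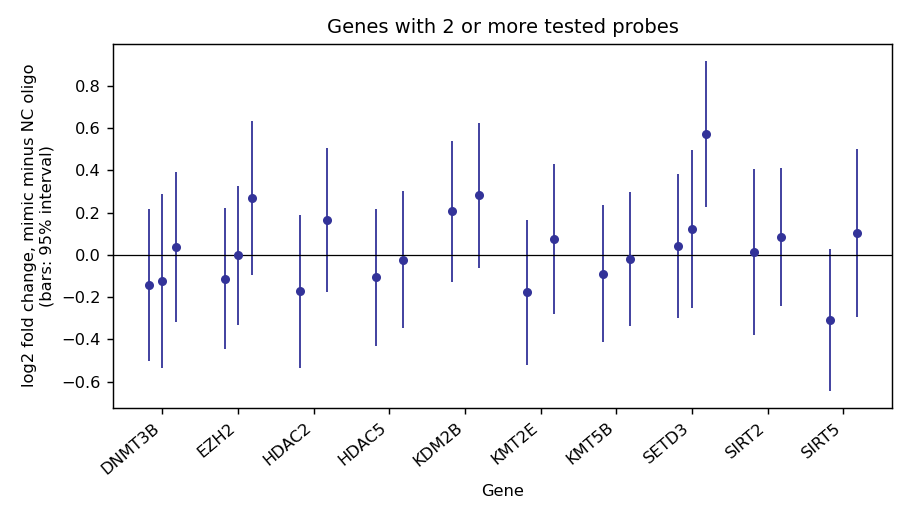
Log2 fold change (y axis, mimic minus NC oligo) of each tested probe of the 10 genes with several (x axis), with its 95% interval. SETD3 spans 0.53 between its probes, SIRT5 0.41, EZH2 0.38 and HDAC2 0.34, and the intervals of probes of each gene overlap.

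Partners of these enzymes did not pass the test either. The 8 lists of related genes held 122 genes, of which 115 matched a named probe used here and 105 had a tested probe, taking the brightest probe of each gene. Of these, 0 were called, where 0% of all tested probes were, 2 (1.90%) had an unadjusted p under 0.05 in limma against 5.46% of all, and 31 (29.5%) had groups that did not overlap against 34.7%. The median log2 fold change over the lists was 0.0022. By sign, 53 of the 105 were positive and 52 negative, where 10124 of all 20188 tested probes were positive. Sign counts of single lists below rest on few genes and are not read as results.

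The 2 genes under that unadjusted limit were EHMT2 and MTRR. EHMT2, which methylates histone H3 in silent chromatin, had 5.42 and 5.44 with the NC oligo and 5.84 and 5.75 with the mimic, a log2 fold change of 0.36 ± 0.14 (SE). The mimic arrays were higher, but the adjusted p was 0.895 in limma. SUV39H1, a heterochromatin methyltransferase, had a log2 fold change of 0.24 and PRMT3, an arginine methyltransferase, -0.34. In this list 10 of 22 tested genes were positive. For the other demethylases, 3 of 6 were positive, and RIOX2, RIOX1 and JMJD6 had log2 fold changes of 0.29, 0.17 and 0.15.

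Members of the complexes had values of both signs. Of the 9 tested partners of EZH1 and EZH2, 5 were positive, and SUZ12, a core subunit, had 10.39 and 10.62 with the NC oligo and 9.93 and 10.38 with the mimic. Its log2 fold change was -0.35 ± 0.18 (SE), with the low value on mimic 1; RBBP4 had -0.27 and PHF1 -0.25. Of the 12 COMPASS partners of the KMT2 and SETD1 enzymes 7 were positive, with CXXC1 at 0.25, WDR82 at 0.25 and WDR5 at 0.24. Of 18 corepressor partners of HDAC1 to HDAC3 and KDM1A 14 were positive, with a median log2 fold change of 0.07. SAP18 had -0.24, GPS2 0.25 and MTA1 0.21.

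Acetyltransferases, which oppose the deacetylases, had 3 positive and 9 negative among 12 tested genes, with a median log2 fold change of -0.04. NCOA1 had -0.30, KAT2B -0.31 and CREBBP -0.28. Readers, targeting and repair factors of DNA methylation had 9 positive of 15, with UHRF2 at 0.37, HELLS at 0.19 and GADD45A at 0.16. In the methyl donor cycle, which supplies methyl groups to the methyltransferases, 2 of 11 genes were positive and the median log2 fold change was -0.07. MTRR, which reactivates methionine synthase, had 8.12 and 7.89 with the NC oligo and 7.38 and 7.64 with the mimic. Its mimic arrays were lower, at a log2 fold change of -0.50 ± 0.16 (SE; limma unadjusted p = 0.0138, adjusted p = 0.895). MTR, the synthase itself, had -0.29 and MAT2B -0.24.

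The 16 probes shown by array kept their sign whichever 1 array was left out. In 0 of the 64 fits that left 1 array out did their sign turn. Sizes moved more: EZH2 ILMN_1652913 ran from 0.11 to 0.42 and KDM4B from -0.34 to -0.06. Of the probes detected in both groups, KDM3B and HDAC1 moved least, from -0.43 to -0.40 and 0.18 to 0.21. These probes were picked for a small p on the same arrays, so a kept sign is no sign of stability. Where the groups do not overlap, as in all of them but HDAC8, leaving out 1 array cannot turn the sign. The size of the 16 fell by a factor over 1.5 for 13 without background correction, for 10 with an offset of 50 and for 12 on the authors' scaled signals. KDM3B and HDAC1 were among those that moved by less, from -0.42 to -0.30 and from 0.19 to 0.15 at most in these settings.

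**Figure D5:**
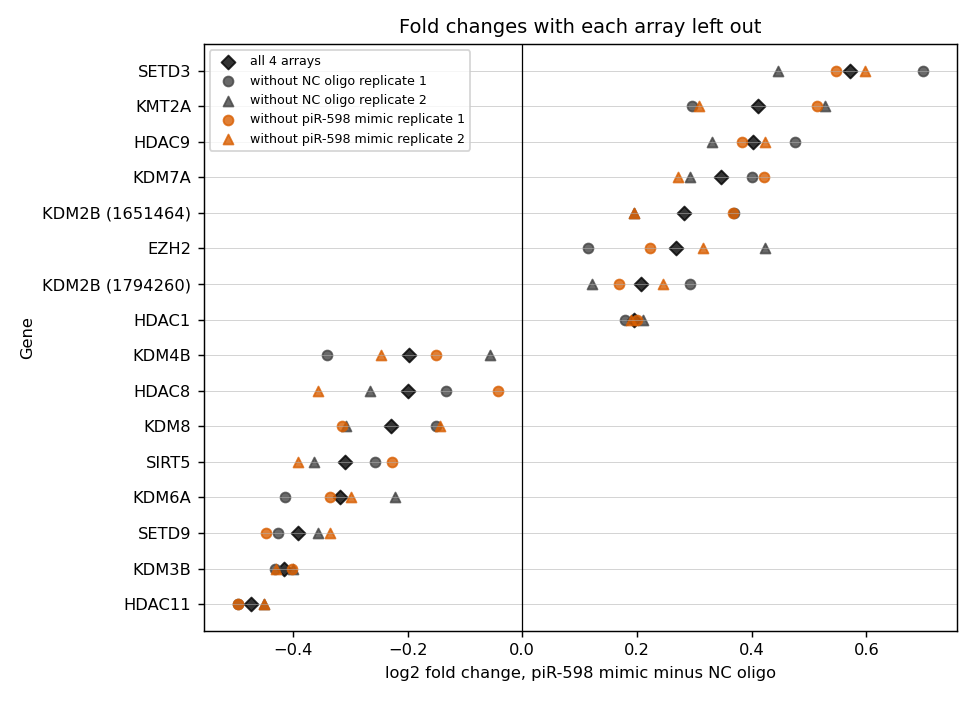
Log2 fold change (x axis, mimic minus NC oligo) of the same 16 probes (y axis) with all 4 arrays (diamonds) and with each array left out (circles and triangles, grey for NC oligo and orange for mimic arrays). No point crosses 0, and KDM4B without NC oligo replicate 2 (-0.06) and HDAC8 without piR-598 mimic replicate 1 (-0.04) come nearest. For every probe but HDAC8 the groups do not overlap, so no point of theirs could cross.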

How the data were processed

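The authors deposited 2 tables, both of U87 cells. The first holds a signal intensity per probe and array on a linear scale with a detection p-value beside each, per the file headers, and its columns were matched to samples by the labels' descriptions. Each detection p-value column followed the signal to its left (rank correlation -0.983 or stronger). GenomeStudio 2011.1 is named in the submitters' processing notes; other steps are not given in the sources used here. The second deposited intensity table was the first times a constant per array (0.951 to 1.07) and served as an alternative.

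Background was removed by normexp, whose control mean and SD came from the detection p-values, with an offset of 16, followed by quantile normalization and log2 (neqc in limma 3.58.1, R 4.3.3). The 20188 of 47318 probes detected (p under 0.05) on 2 or more arrays were fitted together with lmFit and eBayes, mimic minus NC oligo, two-sided, with Benjamini-Hochberg adjustment over all of them; calls needed an adjusted p under 0.05. The prior carried 6.74 degrees of freedom. The procedure was also run on simulated data with known changes, and how many of them it recovered is not reported here.

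Genes were named from the platform annotation; all 63 symbols matched RefSeq by gene identifier. A bound ("at least") takes the mean of the detected group and, per array of the other, the higher of the probe's value and the lowest detected value. It was taken under the main background correction alone. The genes, lists and tests were chosen with earlier results of these data known. Values of every array are given for up to 8 probes per direction of smallest unadjusted p, for the tested probes of listed genes (DNMT1, DNMT3A, DNMT3B, TET1 to TET3, EZH1, EZH2, SETDB1, KDM1A, HDAC1 to HDAC3, SIRT1) and for the probe of smallest p in each family. From each related list the 3 genes of smallest p are named; array values for SIRT6, EHMT2, SUZ12, MTRR and the further SETD3 and SIRT5 probes, and the other members named, were added after their values were seen. No label ties same-numbered arrays to a shared source. The alternatives tried were background, offset, scaling, detection filter, 1 probe per gene, variance trend, replicate block and each array left out.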

Additional observations from a re-analysis of the deposited data

How the results depend on the processing

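None of the 63 enzyme gene probes was called by limma under any of the 14 alternatives, and the same held for the 105 related genes under the 7 alternatives run on them. Over all tested probes the count was 0 except when an array was left out, where it ran from 0 to 3 (3 without NC oligo 2 and 1 without mimic 2). The median log2 fold change of the enzyme gene probes, -0.0041, was -0.020 with 1 probe per gene and -0.020 under median scaling, relative to all tested probes, and ran from -0.039 to -0.022 as each array was left out. Values under other scalings or background settings are relative to all tested probes, whose median moved to -0.09 under median scaling. HDAC3 turned to -0.068 on the authors' scaled signals, -0.015 with cyclic loess and -0.053 under median scaling, and SETDB1 to -0.012 and -0.0074 on the first and last of these. As each array was left out, the log2 fold change ran from -0.089 to 0.066 for DNMT1, from -0.089 to 0.16 and from -0.34 to 0.095 for DNMT3B probes ILMN_1794692 and ILMN_2328977, from -0.15 to 0.24 for EZH1, from -0.082 to 0.078 for EZH2 probe ILMN_2364529, from -0.041 to 0.043 for HDAC3, from -0.14 to 0.13 for KDM1A and from -0.18 to 0.26 for SETDB1. No other sign turned among the 30 probes given by array; the cause was not tested. For the 16 probes shown by array, the size moved by over 1.5 times for 1 under median scaling and for 0 with cyclic loess. The 7 probes at an unadjusted p under 0.05 became 4 without background correction and 11 of 101 without the detection filter. With the replicate number as a block (replicate block), 0 of 63 were called and the count at an unadjusted p under 0.05 stayed 7. Deviations of same-numbered arrays had a correlation of 0.15 across probes. Enzyme genes detected on 2 arrays numbered 50, against 43 at a detection p under 0.01 and 41 on all 4 arrays. HDAC11 and KDM7A, at background in 1 group, carry only a lower bound on a difference, taken under the main background correction.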

Other observations

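Some probes that entered no comparison were bright on a single array. The only KDM4A probe had a normalized log2 signal of 5.22 on NC oligo 2 and 4.42, 4.27 and 4.43 on NC oligo 1 and mimic 1 and 2. KMT2E probe ILMN_2344988 had 5.35 on the same array and 4.47, 4.51 and 4.34 on the others in that order. KMT2C probe ILMN_2408877 was near the limit on the mimic arrays, with a detection p of 0.0623 and 0.0156, against 0.699 and 0.440 on the NC oligo arrays. SIRT5 probe ILMN_2291644 was detected on NC oligo 1 alone, with a detection p of 0.0117. These genes were picked after their values were seen.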
